A study of Mus musculus with 15 samples.

Results

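Complement is the set of plasma and membrane proteins that tags and attacks immune targets, and 9 of its genes were followed through the grades of collagen-induced arthritis (CIA) in mouse knee joint synovium: the C1q chains C1qa, C1qb and C1qc, the component C3, the protease Cfb, the receptors C3ar1 and C5ar1, and the regulators Serping1 and Cd55. They were found as the probe sets whose single gene symbol in the array annotation is one of these names. Of the 9, 8 were measured, out of 18194 genes named on the array. No probe set carried the symbol of C3 alone in that annotation, and C3 is not analysed here. The 8 genes had 15 probe sets in all and every one of them passed the filter on low signals.

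Synovial RNA was measured on 15 Affymetrix arrays, with 3 arrays in each of 5 groups. In CIA, a model of rheumatoid disease, mice mount immunity against type II collagen of cartilage, here 100 µg given with the adjuvant FCA on day 0 and again 100 µg intraperitoneally on day 21. The CIA groups are joints with no, mild, moderate and severe swelling, and the remaining group is healthy and named naive. The immunization is written in the naive samples' protocol field as well, which was taken as text repeated over the series. Should the naive mice have been immunized, they would be no untreated control. Strain, sex and age are not given in the sources used here, and nothing says whether the replicates are separate animals or whether animals were pooled. The p-values therefore rest on the spread between arrays of a group, and that spread may be technical.

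Complement is set off by C1q bound to antibody complexes, by lectins, or by the alternative pathway in which factor B amplifies the cleavage of C3. Cleavage releases the small fragments C3a and C5a, which act through receptors on myeloid cells, while regulators in plasma and on cell membranes hold the cascade back. In CIA, antibodies against type II collagen form complexes on cartilage, and C1q is known to be made mostly by macrophages.

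Values are MAS5 signals in intensity units, and changes are differences of log2(signal + 16), first group minus second, with the standard error (SE) of the limma fit. A gene was called at an adjusted p under 0.05 over all 14310 genes tested. A signal depends on the probe as well as on the RNA, so levels of different genes are not set against each other. Median signals were 36.3 to 47.6 per array, and precision is limited by having 3 arrays a group. On the first principal component, with 70.2% of the variance, no-swelling replicate 3 lay at -68.3, beside naive arrays at -66.3 to -62.1, and mild replicate 2 at -7.3, against 18.5 and 35.7 for the other mild arrays. Synovial fibroblast markers were detected throughout, and skeletal muscle markers were bright too. RNA of muscle was thus present beside that of synovium. The summed muscle signals were 101749 to 119048 in naive and 114453 to 119986 in no-swelling samples. They were 73792 to 81011 in mild, 52961 to 85863 in moderate and 81423 to 115246 in severe samples. All 12 muscle markers were called lower in swollen against unswollen joints, among 27.1% of all genes. The actin 3′ to 5′ signal ratio, a sign of RNA or labelling quality, averaged 1.25 ± 0.03 in severe and 0.98 ± 0.08 in naive joints (SD, n = 3 each). It averaged 1.1 without swelling, 1.16 in mild and 1.23 in moderate swelling, and so followed the order of the groups. Naive arrays, at 0.89 to 1.03, lay below the no-swelling arrays, at 1.07 to 1.16. The same ratio for Gapdh averaged 0.89 ± 0.07 in severe and 0.85 ± 0.03 in naive joints. The part of RNA or labelling quality in the results was not tested.

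In severely swollen joints, 7 of the 8 genes were higher than in naive joints and 1, Cd55, was lower. All 8 were also called with any 1 array left out, and Cd55 was the one whose call depended on the scaling of the arrays. The median log2 change of the 8 was 2.04, against 0.11 for all genes tested and 0.34 for the 27 other complement genes tested. The 8 were chosen with earlier results of these data known, so their larger median is not separate evidence. The background is high in this comparison, since 32.2% of all genes were called higher and 22.9% lower. A direction of change alone therefore says little, and the size, the step of swelling at which it appeared and the differences among the 8 genes are given in turn. In bulk tissue a change in the number of cells of a type and a change in RNA per cell cannot be told apart.

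**Figure D1:**
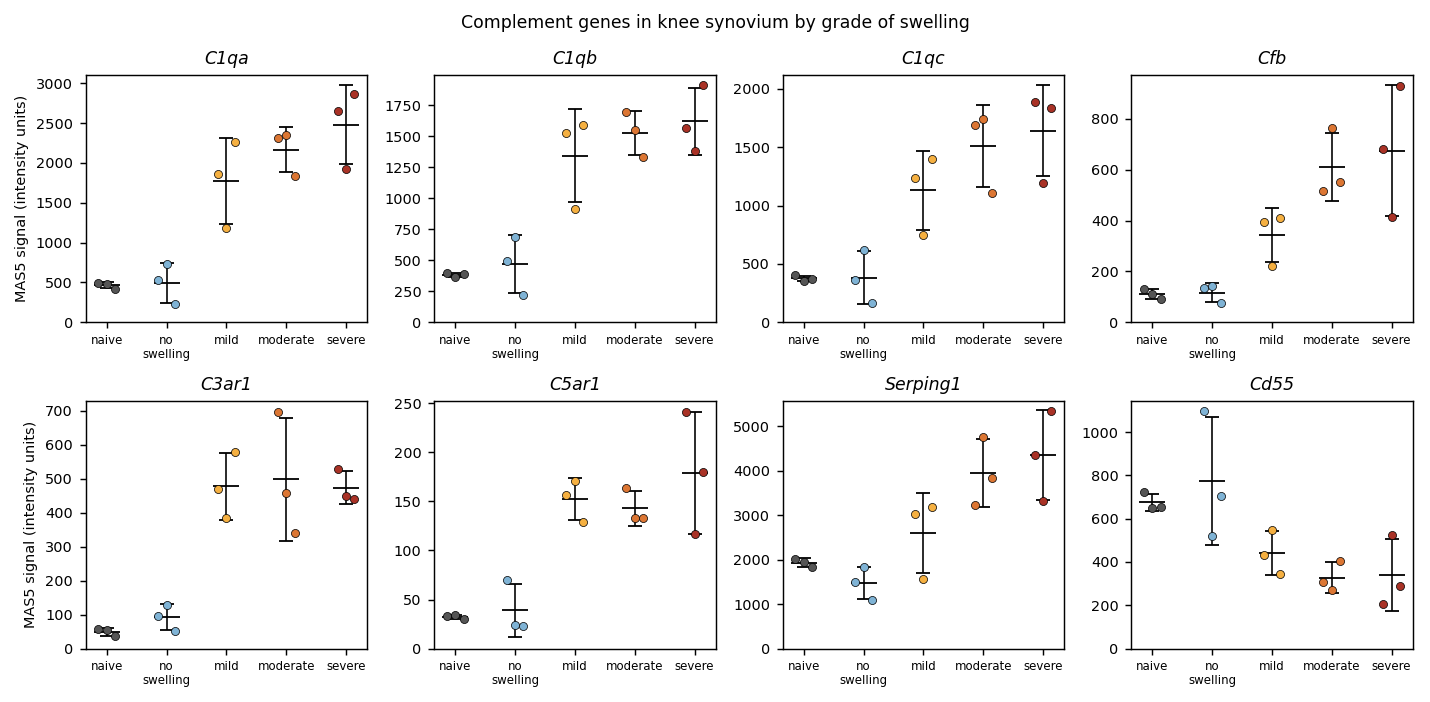
MAS5 signal (linear, from 0) of the 8 complement genes on every array, in 5 groups from naive to severe swelling; points are arrays, the horizontal line is the mean and bars are ± SD (n = 3). Apart from Cd55 and Serping1, every mild, moderate and severe array lay above every naive and no-swelling array. How many of all genes do the same was not counted, and 37.0% of all genes were called higher in swollen against unswollen joints.

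C1qa, C1qb and C1qc encode the chains that assemble into C1q, the recognition molecule of the classical pathway. In the RefSeq table the 3 genes follow each other on chromosome 4 with no other protein-coding gene between them. C1qa, measured by 1 probe set, had signals of 490.9, 479.6 and 420.7 in naive joints, 527.5, 734.4 and 232.0 without swelling, 1859.9, 1188.7 and 2263.4 in mild, 2314.4, 2349.0 and 1842.9 in moderate and 2652.9, 1920.7 and 2864.5 in severe swelling. The highest array without swelling stayed below the lowest mild array, while the mild, moderate and severe arrays overlapped. C1qb had 394.9, 361.2 and 385.8 in naive joints, 495.4, 688.7 and 222.0 without swelling, 1520.9, 908.5 and 1590.4 in mild, 1691.1, 1545.6 and 1335.0 in moderate and 1564.7, 1380.4 and 1911.2 in severe swelling. It showed the same break between unswollen and swollen joints. C1qc had 402.8, 357.1 and 370.4 in naive joints, 363.6, 622.4 and 162.8 without swelling, 1240.1, 748.1 and 1402.2 in mild, 1691.4, 1738.0 and 1109.7 in moderate and 1890.3, 1194.2 and 1839.1 in severe swelling. Its groups broke at the same place. How common such a break is among all genes was not counted.

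In severe swelling against naive, C1qa was 5.14-fold higher (log2 change 2.36, SE 0.31, adjusted p = 1.11e-05 by limma), C1qb 4.09-fold higher (2.03, SE 0.30, adjusted p = 2.87e-05) and C1qc 4.14-fold higher (2.05, SE 0.35, adjusted p = 0.000128). Most of that difference was already present in mild swelling, where the log2 changes against naive were 1.85 for C1qa, 1.73 for C1qb and 1.50 for C1qc. The other probe sets of C1qb rose as well in severe swelling, by 2.30 and 1.72 on the log2 scale. Tested probe set by probe set, 28.3% of all probe sets were called higher and 21.3% lower.

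Differences among the chains were small beside these changes. The log2 ratio of C1qa to C1qb on each array averaged 0.50 ± 0.13 in swollen joints (SD, n = 9). It averaged 0.18 ± 0.14 in joints without swelling, naive included (SD, n = 6). Of these, naive arrays averaged 0.27 and no-swelling arrays 0.08, and naive arrays overlapped mild ones, which averaged 0.39. Swollen minus unswollen, the difference was 0.32 (exact two-sided permutation test over 5005 arrangements, p = 0.000999, adjusted over 5 pairs of genes 0.0025). With another C1qb probe set, 1437726_x_at, that difference was 0.12 (exact permutation test, adjusted p = 0.465), and with 1434366_x_at it was 0.56 (adjusted p = 0.002), so the shift depended on which C1qb probe set was read. C1qa to C1qc, for which each gene has a single probe set, shifted by 0.24 (exact permutation test, adjusted p = 0.00566), with averages of 0.59 ± 0.11 in swollen and 0.35 ± 0.14 in unswollen joints. C1qb to C1qc differed by -0.08 (exact permutation test, adjusted p = 0.467), which was smaller than the spread of 0.20 (SD) within either set of arrays.

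**Figure D2:**
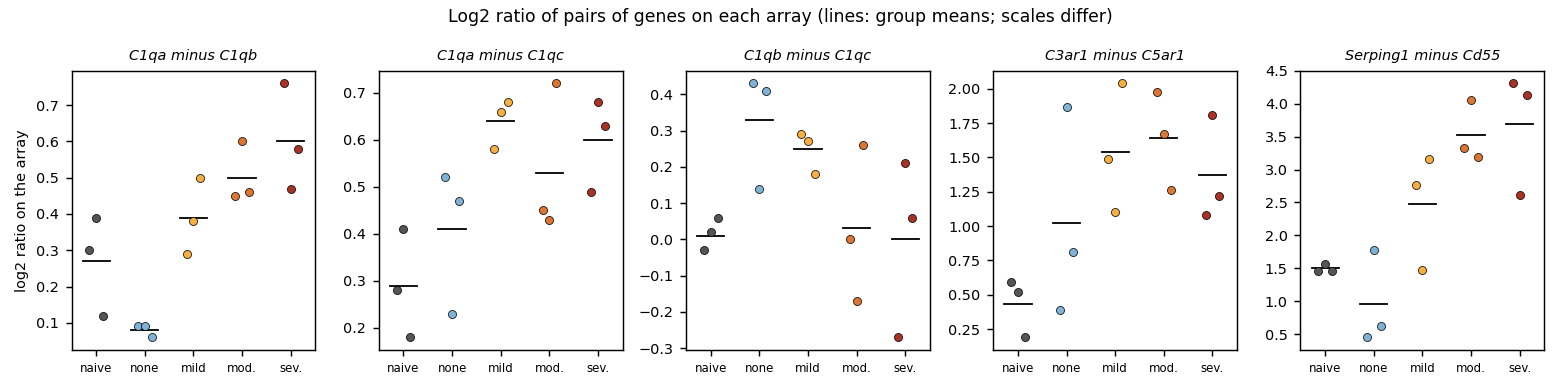
Log2 ratio of the signals of 5 pairs of complement genes on each array, from naive to severe swelling; points are arrays, lines are group means, and the vertical scales differ between panels. C1qa minus C1qc and Serping1 minus Cd55 averaged higher in the 9 swollen arrays than in the 6 others. C1qa and C1qc have a single probe set each, so whether their shift depends on the probe set could not be checked. The shifts of C1qa minus C1qb and C3ar1 minus C5ar1 depended on the probe set.

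The promoters of C1qb and C1qc are shown because these neighbouring genes moved together, and that of Cd55 because it was the one gene of the 8 that fell. Of the 8 genes, 5 had an entry in the promoter table. Each sequence runs from 250 bases before to 50 bases after the start of the gene, in RefSeq's GRCm38.p6 table, 5′ to 3′ on the gene's strand, with motif matches in capitals.
C1qb, chr4:136886151-136886450, minus strand: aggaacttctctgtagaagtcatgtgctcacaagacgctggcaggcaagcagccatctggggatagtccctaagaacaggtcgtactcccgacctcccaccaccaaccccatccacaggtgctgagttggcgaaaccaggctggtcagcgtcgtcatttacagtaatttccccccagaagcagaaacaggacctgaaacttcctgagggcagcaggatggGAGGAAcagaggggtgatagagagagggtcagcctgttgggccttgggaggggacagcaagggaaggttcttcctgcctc
C1qc, chr4:136892865-136893164, minus strand: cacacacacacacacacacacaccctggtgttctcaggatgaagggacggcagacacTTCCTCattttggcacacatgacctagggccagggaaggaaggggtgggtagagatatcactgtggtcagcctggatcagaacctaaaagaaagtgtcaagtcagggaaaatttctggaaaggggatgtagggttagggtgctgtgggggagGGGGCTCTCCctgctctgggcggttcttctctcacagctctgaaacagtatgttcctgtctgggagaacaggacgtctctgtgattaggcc
Cd55, chr1:130462695-130462994, minus strand: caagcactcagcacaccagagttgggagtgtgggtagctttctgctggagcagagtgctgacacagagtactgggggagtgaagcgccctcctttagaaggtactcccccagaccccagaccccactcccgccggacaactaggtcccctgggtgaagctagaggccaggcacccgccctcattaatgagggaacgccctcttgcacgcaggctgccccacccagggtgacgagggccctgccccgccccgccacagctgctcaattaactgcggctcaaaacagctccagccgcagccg
Motifs were searched on both strands. The ETS/PU.1 core GAGGAA, the binding core of a transcription factor family active in myeloid cells, was found in the promoter of C1qb, starting 30 bases before the gene's start, and on the opposite strand in that of C1qc, 193 bases before it. That core occurs in 28.3% of all 32851 promoters of this length, so its presence in 2 of the 5 promoters at hand is a description only. An NF-kappa-B site stood 41 bases before the start of C1qc, and 8.46% of all promoters hold one. The gamma-interferon activated site core TTCNNNGAA, the C/EBP core TTNNGCAA and the interferon-stimulated response element core GAAANNGAAA, held by 8.3%, 10.8% and 3.44% of all promoters, had no match in the windows of C1qb, C1qc, C3ar1, C5ar1 or Cd55. None of the 5 motifs matched in the windows of C3ar1, C5ar1 and Cd55. The matches found do not overlap each other.

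Cfb encodes factor B, the protease precursor of the alternative pathway. Its signals were 131.9, 111.4 and 91.3 in naive joints, 134.5, 142.1 and 75.2 without swelling, 396.2, 220.4 and 411.5 in mild, 518.4, 764.8 and 551.5 in moderate and 683.2, 414.5 and 928.4 in severe swelling. All swollen joints lay above all unswollen ones, and all moderate arrays lay above all mild arrays. In severe swelling Cfb was 5.20-fold higher than in naive joints (log2 change 2.38, SE 0.29, adjusted p = 5.7e-06, limma). Against naive it was 1.45 higher in mild and 2.29 higher in moderate swelling on the log2 scale. The step between moderate and mild, 0.84 (SE 0.29, 95% interval 0.22 to 1.45), missed the threshold over all genes (adjusted p = 0.0934, limma) and, among the alternatives run, was called only with array quality weights, at 0.55 (adjusted p = 0.0287).

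C3ar1 encodes the receptor of C3a, a G protein-coupled receptor of myeloid cells. Its signals were 58.2, 55.6 and 36.5 in naive joints, 96.9, 128.5 and 52.1 without swelling, 468.8, 384.6 and 578.7 in mild, 696.0, 457.8 and 340.7 in moderate and 529.1, 449.5 and 441.2 in severe swelling. Levels were low in unswollen joints, high in all swollen ones, and without order among the 3 swollen grades. On this scale C3ar1 had the largest change of the 8 genes in severe swelling, 7.46-fold higher than in naive joints (log2 change 2.90, SE 0.27, adjusted p = 5.34e-07, limma). Its log2 change was likewise 2.90 in mild and 2.92 in moderate swelling. With a pseudocount of 64 it was 2.24, beside 2.25 for C1qa. The other probe sets gave 3.34 and 2.15 in severe swelling.

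C3ar1 also had the lowest p of the 8 genes before swelling. In immunized joints without swelling its log2 difference from naive was 0.66 (SE 0.27, 95% interval 0.10 to 1.23). This did not pass over all genes (adjusted p = 0.189, limma), and its groups overlapped. Its probe set 1442082_at had signals of 91.2, 132.7 and 45.4 without swelling, against 33.6, 42.5 and 33.1 in naive joints. These arrays did not overlap, and the log2 difference of 0.93 (SE 0.27) had an adjusted p of 0.0812 over all probe sets.

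C5ar1 encodes the main receptor of C5a, through which neutrophils and macrophages are drawn and activated. Its signals were 33.3, 33.9 and 29.9 in naive joints, 70.2, 23.5 and 22.8 without swelling, 156.6, 170.7 and 128.7 in mild, 164.1, 132.6 and 133.4 in moderate and 241.1, 117.0 and 179.8 in severe swelling. Naive signals were close to the 40th percentile of the arrays, 23.4 to 31.1, so the change of this dim gene is understated by the added 16. It was 3.90-fold higher in severe swelling than in naive joints (log2 change 1.96, SE 0.27, adjusted p = 1.86e-05, limma), and the log2 change was 2.38 with a pseudocount of 1 and 1.30 with 64. Its other probe set gave 2.22. No-swelling replicate 1 stood apart from the other arrays of its group at 70.2.

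The log2 ratio of C3ar1 to C5ar1 averaged 1.52 ± 0.37 in swollen joints (SD, n = 9). In unswollen joints it averaged 0.73 ± 0.60 (SD, n = 6). Of these, naive arrays averaged 0.43 and no-swelling arrays 1.02, with no-swelling replicate 2 at 1.87. Swollen minus unswollen, the difference was 0.79 (exact permutation test, adjusted p = 0.0125). It was 0.64 with a pseudocount of 1 (exact permutation test, adjusted p = 0.0657) and 0.08 with the C3ar1 probe set 1419482_at (exact permutation test, adjusted p = 0.71). A larger rise of C3ar1 than of C5ar1 was thus not seen on every probe set.

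Serping1 encodes the C1 inhibitor, the plasma serpin that inactivates the proteases attached to C1q. Its signals were 2018.0, 1949.4 and 1826.4 in naive joints, 1506.5, 1826.7 and 1099.8 without swelling, 3018.9, 1562.5 and 3191.0 in mild, 3231.6, 4753.5 and 3843.1 in moderate and 4358.9, 3318.8 and 5343.9 in severe swelling. All moderate and severe arrays lay above every naive and unswollen array, whereas mild replicate 2 lay below all 3 naive arrays. In severe swelling Serping1 was 2.20-fold higher than in naive joints (log2 change 1.14, SE 0.25, adjusted p = 0.00122, limma) and in moderate swelling 2.01-fold higher (1.01, adjusted p = 0.00312). In mild swelling the difference from naive was 0.35 (SE 0.25, adjusted p = 0.288, limma), and without mild replicate 2 it was 0.68 (adjusted p = 0.0194). With array quality weights it was 0.63 (adjusted p = 0.00051). With hybridization control scaling it was 0.99 (adjusted p = 0.0117), where the median of all genes was 0.58. Moderate exceeded mild by 0.65 (SE 0.25, 95% interval 0.12 to 1.19), which was not called (adjusted p = 0.129), although the groups did not overlap.

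Cd55 encodes decay-accelerating factor, a membrane protein that breaks up the C3-cleaving enzymes on the cell's own surface and that is known to be abundant on lining fibroblasts of the synovium. Its signals were 721.4, 650.0 and 652.7 in naive joints, 1098.4, 521.2 and 703.4 without swelling, 431.7, 548.5 and 343.3 in mild, 307.6, 269.1 and 405.9 in moderate and 205.2, 524.8 and 287.6 in severe swelling. All swollen joints lay below all naive joints, and mild replicate 2 and severe replicate 2 overlapped the lowest array without swelling. Cd55 fell to a mean of 339 ± 166 in severe swelling, against 675 ± 40.5 in naive joints (SD, n = 3 each), a log2 change of -1.06 (SE 0.29, adjusted p = 0.00584, limma). The change in moderate swelling was -1.03 (adjusted p = 0.00733), and that in mild swelling, -0.62, was not called (adjusted p = 0.105). That mild fall was called without severe replicate 2 (adjusted p = 0.0478), with probe set 1460242_at (-0.68, adjusted p = 0.0126), with the mean of its probe sets (-0.52, adjusted p = 0.0308), with only the groups compared (adjusted p = 0.0171) and with array quality weights (adjusted p = 0.00251).

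The fall of Cd55 depended on the scaling and the probe set. With arrays scaled on the hybridization control probe sets, the median of all genes moved to 0.53 in severe swelling against naive, and Cd55 stood at -0.56 (adjusted p = 0.202, limma), below that median but not called. In mild swelling against naive that scaling put Cd55 at 0.01 with the median of all genes at 0.58. The 7 other genes were called higher in severe swelling under that scaling too, as they were with quantile normalization and with medians aligned, under which Cd55 was also called lower. The probe set 1460242_at fell by 0.70 in severe swelling, while 1443906_at, the dimmest, changed by -0.38 (adjusted p = 0.0894) and overlapped between the groups. A further probe set shared with Cd55b was not used.

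The log2 ratio of Serping1 to Cd55, both regulators, averaged 3.23 ± 0.89 in swollen (SD, n = 9) and 1.22 ± 0.54 in unswollen joints (SD, n = 6). The difference of 2.0 passed (exact permutation test, p = 0.000999, adjusted p = 0.0025), and it was 1.34 and 1.93 with the other Cd55 probe sets. With hybridization control scaling the difference was 2.02 (exact permutation test, adjusted p = 0.0025). That scaling multiplies a whole array by a single factor, which nearly cancels in a ratio, so this value is no check on the scaling. The plot of log2 ratios by array shows mild replicate 2 and severe replicate 2 as the lowest of their groups.

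Read step by step, immunization without swelling called 0 of the 8 genes against naive (limma, 1 at an unadjusted p under 0.05), where 1.52% of all genes were called higher and 1.8% lower. The median log2 change of the 8 was 0.05. The arrays without swelling were widely spread, with an SD of 252 for C1qa against 37.7 in naive joints, and leaving out no-swelling replicate 3 gave C1qa a change of 0.42 where all arrays gave -0.04, neither of them called. In mild swelling 6 of the 8 were called higher than in naive joints and 0 lower, among 22.9% of all genes higher and 17.0% lower. Against joints without swelling, mild swelling called 7 higher and 0 lower, among 22.9% higher and 15.5% lower. In that comparison Serping1 changed by 0.77 (adjusted p = 0.0254), a call that was lost without mild replicate 1 (adjusted p = 0.11), without mild replicate 3 (adjusted p = 0.122) or without no-swelling replicate 3 (adjusted p = 0.127). The call was also lost with array medians aligned (adjusted p = 0.0621) and with only the groups compared (adjusted p = 0.0697). Cd55 changed by -0.75 (adjusted p = 0.0543), close to the threshold. It was called lower without mild replicate 2 (adjusted p = 0.0327), no-swelling replicate 2 (0.0201), severe replicate 1 (0.035) or severe replicate 2 (0.0203), where the severe arrays enter through the shared estimate of spread. It was also called with array medians aligned (-0.92, adjusted p = 0.0263), array quality weights (0.00162), the filter at the 60th percentile (0.0488), a pseudocount of 64 (0.0477), the mean of its probe sets (0.00657) and probe set 1460242_at (-1.03, adjusted p = 0.000951). With hybridization control scaling it stood at 0.02 (adjusted p = 0.972), where the median of all genes was 0.71.

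Between moderate and mild swelling 0 of the 8 genes were called (limma, 2 at an unadjusted p under 0.05, Cfb and Serping1), among 3.21% of all genes higher and 3.38% lower. Between severe and moderate swelling 0 of the 8 genes and 0.0% of all genes were called in either direction (limma, 0 members and 885 of all genes at an unadjusted p under 0.05). The 95% intervals of that last step ran from -0.48 to 0.84 for C1qa, from -0.59 to 0.55 for C3ar1 and from -0.53 to 0.71 for Cfb on the log2 scale. Moderate swelling against naive called 7 higher and 1 lower, among 30.8% higher and 23.7% lower. The same split held for severe against no swelling, among 33.0% and 21.9%, and for swollen against unswollen joints, among 37.0% and 27.1%. The linear slope per grade over the CIA groups also called 7 up and 1 down, among 33.5% and 22.6%. These comparisons share arrays, so their counts are not separate evidence. The slopes ran between 0.53 for Serping1 and 0.79 for Cfb per grade among the 7 that rose and were -0.40 for Cd55, which was not called lower with hybridization control scaling in any of these comparisons. A slope need not mean an even rise. For C3ar1, with a slope of 0.67, the successive steps from no swelling were 2.23, 0.02 and -0.02. For C5ar1, with a slope of 0.56, they were 1.71, -0.07 and 0.25.

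**Figure D3:**
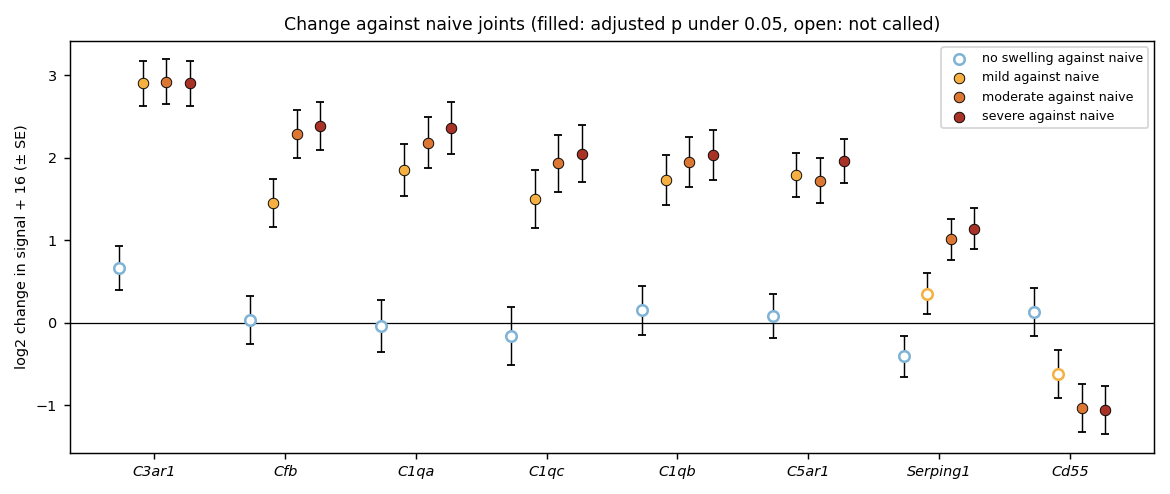
Log2 change in signal + 16 against naive joints for the 8 genes in joints without swelling and with mild, moderate and severe swelling (± SE of the limma fit, 3 arrays a group, all sharing the naive arrays); filled points passed an adjusted p of 0.05. C3ar1 stood near 2.90 at every grade of swelling, while Serping1 passed in moderate and severe swelling; the fall of Cd55 was not called when arrays were scaled on hybridization controls.

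Within groups the same arrays were low for most of the genes. Of the 7 genes other than Cd55, no-swelling replicate 3 was the lowest array of its group for 7, mild replicate 2 for 6 and severe replicate 2 for 6. Markers of several cell types moved alongside. The summed signal of the macrophage markers was 2523 in no-swelling replicate 3, the lowest of its group, 9501 in mild replicate 2 and 10983 in severe replicate 2, both also the lowest of their groups. The sums of neutrophil, synovial fibroblast, chondrocyte and osteoclast markers were lowest on the same 3 arrays too, at 17000, 29754 and 45949 for fibroblast and 577, 5076 and 9772 for neutrophil markers, so the pattern was not one of macrophage markers alone. The part of cell composition in these within-group differences was not tested.

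Between groups the marker lists moved too, in severe swelling against a background of 32.2% of all genes higher and 22.9% lower. Of 11 macrophage markers tested, 10 were higher in severe swelling than in naive joints, with a median log2 change of 2.40, and their summed signal was 10983 to 15806 in severe, against 3044 to 3317 in naive joints. Lyz2 and Csf1r, the brightest of that list, rose by 2.40 and 1.77 on the log2 scale, close to the 2.03 to 2.36 of the C1q chains. Of 10 neutrophil markers, 7 were higher with a median of 3.47, and the sum was 9772 to 13427 in severe against 201 to 272 in naive joints. S100a9 and S100a8, the brightest of these, rose by 7.14 and 6.73, and C5ar1 by 1.96. Already without swelling 5 of the 10 neutrophil markers were higher than in naive joints, where 1.52% of all genes were. The median change of the 10 was 1.22 and their sum 577 to 3796, while C5ar1 was at 0.08 (SE 0.27). The sum of 3796 was that of no-swelling replicate 1, where C5ar1 was 70.2. Replicates 2 and 3, with sums of 1335 and 577, had C5ar1 at 23.5 and 22.8. Between no swelling and naive, 0 of the 11 macrophage markers were called, with a median of 0.49. C1qa, C1qb and C1qc stood there at -0.04, 0.15 and -0.16. In severe against no swelling the macrophage median was 1.72, beside 2.40, 1.88 and 2.21 for these chains. Of 12 synovial fibroblast markers, 11 were higher and 1 lower in severe swelling, with a median of 1.97 and a sum of 45949 to 66282, against 21261 to 22531 in naive joints. Col3a1 and Dcn, the brightest, rose by 0.76 and 0.58. Other lists changed by as much as the complement genes. Of 7 osteoclast markers 6 were higher with a median of 2.51, and their sum was 3961 to 6985 in severe, against 317 to 427 in naive joints. Of 7 chondrocyte markers 6 were higher with a median of 2.36, and their sum was 4117 to 6523 in severe, against 806 to 906 in naive joints. Of 9 adipocyte markers 7 were lower with a median of -1.63, and their sum was 5083 to 7690 in severe, against 13356 to 17198 in naive joints, in the direction of Cd55. Of 12 skeletal muscle markers 3 were lower in severe swelling, with a median of -0.19, also in that direction. In moderate swelling 10 of them were lower than in naive joints, with a median of -0.59, among 23.7% of all genes. No marker of these lists was at 0 on any array, and the part of these cells in the complement changes was not tested.

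The profile of each gene over the 15 arrays, centred on its own mean, was set against those of all genes tested, with the root mean square difference in log2 units as the measure of likeness. The nearest to C1qa were S100a4 (0.15), C1qc (0.16) and Ctsh (0.18), and the nearest to C1qc were C1qa (0.16), C1qb (0.19) and Emilin2 (0.21). Nearest to C1qb were Zfp36l2 (0.16), Cybb (0.17) and Stab1 (0.18). C3ar1 was most like Cd44 (0.21), Cd53 (0.22) and Plek (0.22), and C5ar1 most like Sptlc2 (0.26), Pbk (0.27) and Sema4d (0.28). Cfb was most like Loxl1, Ppib and Sulf1 (0.19 each), Serping1 most like Lhfp (0.14), Sash1 (0.14) and Fbln1 (0.15), and Cd55 most like Xrcc5 (0.17), Mllt3 (0.18) and Cap2 (0.18). C1qa and C1qc were each among the other's 3 nearest genes, and no receptor or regulator had another of the 8 genes among its 3 nearest.

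The rest of the complement system was read from lists of 60 genes, of which 47 had a probe set with a single symbol and 35 passed the signal filter, the 8 genes included. Of the 27 others, 10 were higher and 5 lower in severe swelling than in naive joints, with a median of 0.34. As shares these are near the 32.2% and 22.9% of all genes, so the counts do not set the wider list apart from the other genes on the array. In the classical pathway, the C1q-bound proteases C1ra and C1s1 both rose by 2.22 on the log2 scale and C2, the neighbour of Cfb on chromosome 17, by 0.89. In the lectin pathway, the scavenger receptor Colec12 rose by 2.16 and the protease Masp1 by 1.49, with Masp1 called on 3 of its 5 probe sets, while the ficolin Fcna fell by 0.90. Properdin, Cfp, which stabilizes the alternative pathway's enzyme, rose by 1.62.

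Of the 7 receptors tested, 6 were higher, C3ar1 and C5ar1 included. The shared chain of the complement receptors CR3 and CR4, Itgb2, rose by 3.09, Itgam by 2.09 and Itgax by 2.0, values near those of C3ar1 and C5ar1. Cd93 rose by 1.32, on 2 of its 4 probe sets, and Vsig4, a receptor of resident macrophages, was not called (0.24). Among the regulators other than Serping1 and Cd55, Cd59a, which blocks the membrane attack complex, fell by 0.75, the soluble inhibitor of that complex Vtn (vitronectin) fell by 0.93 and C1qbp, a C1q-binding protein, fell by 0.35. C9, the pore-forming component, was called lower (adjusted p = 0.00246), but at signals of 12.3, 12.7 and 8.3 in severe swelling, below the arrays' 40th percentile, against 30.0, 47.0 and 54.9 in naive joints, so no size is given for it. With hybridization control scaling the falls of Cd59a (-0.25), Vtn (-0.45) and Fcna (-0.45) were not called, and C1qbp was at 0.16. On the authors' scaling, the other probe sets gave -1.41 for Cd59a, -0.84 for C1qbp and 0.00 for Vtn. The 12 genes not called were Mbl1, Masp2, Fcnb, Colec11, C6, C8g, Cfi, Clu, Cd46, Cr1l, Thbd and Vsig4. Of these, hybridization control scaling called Cr1l (0.94, adjusted p = 0.0238) and Thbd (1.0, adjusted p = 0.0168) higher, and C8g (-0.74) was called lower with quantile normalization (adjusted p = 0.0451) and with medians aligned (adjusted p = 0.0362). Another Cr1l probe set was called higher too (0.64, adjusted p = 0.00861).

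**Figure D4:**
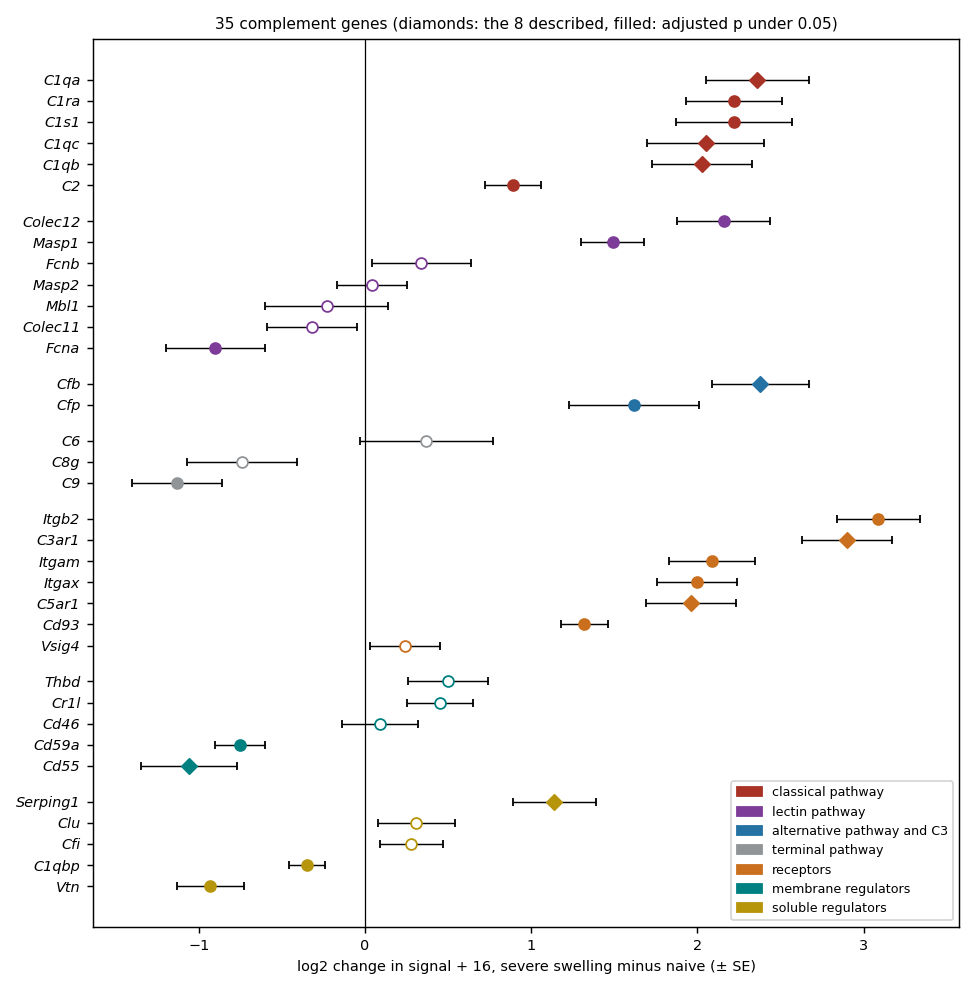
Log2 change in signal + 16 in severe swelling minus naive (± SE of the limma fit) for 35 complement genes, grouped by role and ordered by size within a role; diamonds are the 8 genes described, filled symbols passed an adjusted p of 0.05. All 6 classical pathway genes and 6 of 7 receptors rose, among 32.2% of all genes higher and 22.9% lower. Of 5 membrane regulators 2, Cd55 and Cd59a, fell; with hybridization control scaling neither fall was called and Cr1l and Thbd were called higher.

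In no case did a complement gene of these lists pass between no swelling and naive (limma, 0 of 35, with 4 at an unadjusted p under 0.05), where 1.52% of all genes were called higher and 1.8% lower. Between moderate and mild swelling 4 of the 27 others were called, 2 higher and 2 lower, among 3.21% and 3.38% of all genes. C1ra had 955.9, 1398.0 and 1023.0 in moderate, against 614.4, 297.5 and 681.6 in mild swelling, and rose by 1.12 (SE 0.29, adjusted p = 0.0344, limma). C1s1 had 1245.3, 1766.9 and 1491.6 in moderate, against 924.1, 261.9 and 837.7 in mild swelling, and rose by 1.31 (SE 0.35, adjusted p = 0.0384). For both, the moderate and mild arrays did not overlap, and mild replicate 2 was far the lowest.

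The other pair peaked in mild swelling. Thbd, which encodes thrombomodulin, had 1234.7, 951.2 and 564.2 in moderate, against 2143.7, 1600.2 and 1781.3 in mild swelling, and fell by 1.05 (SE 0.24, adjusted p = 0.0185, limma). Clu, which encodes the terminal pathway inhibitor clusterin, had 1038.6, 1064.9 and 907.7 in moderate, against 2266.5, 1616.5 and 2201.6 in mild swelling, and fell by 0.99 (SE 0.23, adjusted p = 0.0207). Against naive, mild swelling was 2.25 higher for Thbd and 1.21 higher for Clu, and severe swelling 0.50 and 0.31, not called. None of the 4 moderate against mild calls was kept with hybridization control scaling, at 0.99 for C1ra, 1.17 for C1s1, -1.20 for Thbd and -1.14 for Clu, and 0 of them passed without moderate replicate 2 or without moderate replicate 3. With the replicate number as a block, 2 of the 27 genes were called in place of 4.

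**Figure D5:**
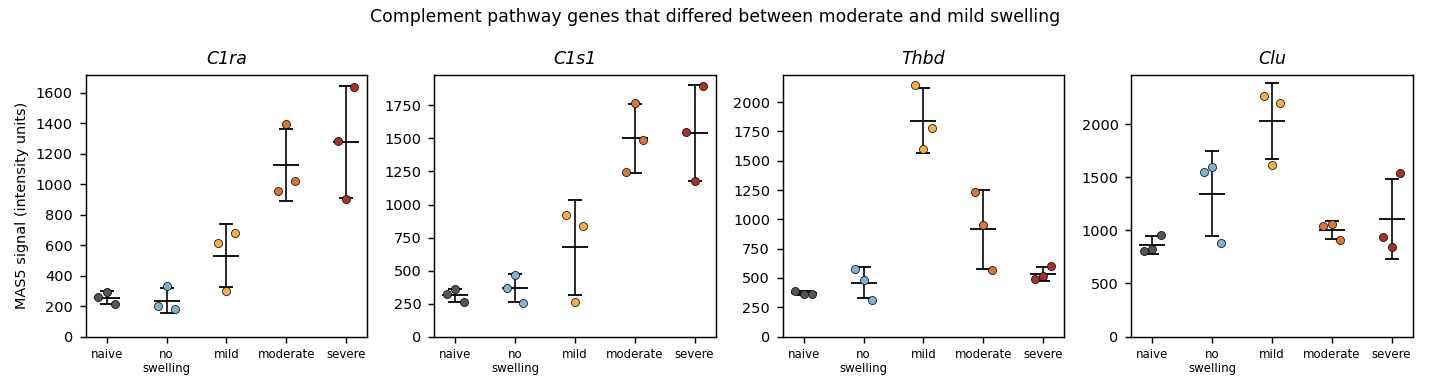
MAS5 signal (linear, from 0) of C1ra, C1s1, Thbd and Clu on every array from naive to severe swelling; points are arrays, the horizontal line is the mean and bars are ± SD (n = 3). C1ra and C1s1 were higher in moderate than in mild swelling, whereas Thbd and Clu were highest in mild swelling; the calls between moderate and mild were lost with hybridization control scaling.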

How the data were processed

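Biotin-labelled synovial RNA was hybridized to 15 Affymetrix arrays, per the labels' protocols. Linear intensity values of 45101 probe sets were deposited, which the authors computed with MAS5, as the submitters' processing notes name it without a version. Trimmed by 2% at each end, every array averaged 150.0, so the authors' scaling was kept. The platform annotation from GEO (possibly dated) gave 34958 probe sets 1 gene symbol, 932 several and 9211 none; only the first kind was named, and 34754 of them matched a RefSeq gene table.

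The deposited intensities were transformed to log2(signal + 16). For each gene the probe set of highest mean log2 value was used, and genes above an array's 40th percentile on at least 3 arrays were tested. Group means over all 15 arrays were fitted with limma 3.58.1 in R 4.3.3 (eBayes with an intensity trend, 10 residual and 5.56 prior degrees of freedom) and called at a two-sided Benjamini-Hochberg adjusted p under 0.05 over all genes of a comparison. With 3 arrays against 3, no exact permutation p can be under 0.1. Log ratios of 5 pairs were compared between 9 swollen and 6 unswollen arrays by exact permutation, where the smallest p is 0.0002. Of these steps, only the limma fit of severe swelling against naive was tried on simulated arrays, with independent noise and known rises. The permutation tests and scalings were not tried on them.

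The members and lists were chosen with earlier results of these data known. Named were all members, every complement gene called in severe or no swelling against naive, the 2 brightest macrophage, neutrophil and fibroblast markers and the 3 genes most like each member. Other complement genes were named after their values were seen. Alternatives were other pseudocounts, filters, scalings and probe set rules, no trend, only the groups compared, a replicate block, array weights and each array left out.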

Additional observations from a re-analysis of the deposited data

How the results depend on the processing

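The member counts kept within 1.5 times of the reported ones under the alternatives run, except that array quality weights called 1 member (Cfb) between moderate and mild swelling where 0 were reported; the estimate of these weights stopped before it converged. With each array left out, the members called were 6 to 7 in mild swelling against naive and 6 to 8 against no swelling, and did not change in the other comparisons. The pathway counts other than members were less stable: with every probe set required by itself, 9 were called in mild swelling against naive and 8 against no swelling, where 14 were reported in each. Between moderate and mild swelling, where 4 were reported, array quality weights called 16, no intensity trend 2, only the groups compared 0, hybridization control scaling 0, and leaving out an array 0 to 5. The log ratio of C3ar1 to C5ar1 shifted by 0.64 with a pseudocount of 1 and by 0.08 with the C3ar1 probe set 1419482_at, that of C1qa to C1qb by 0.12 and that of C1qb to C1qc by 0.13 with the C1qb probe set 1437726_x_at. The other probe sets were tried in the ratios after seeing the data. The cause of these differences was not tested. Of 2302 alternative log2 changes of members, 46 turned sign, none of them called and none over 0.42 in size.

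Samples share replicate numbers, but same-numbered samples did not deviate together (correlations of -0.50 to 0.33 over 30 pairs), so the numbers were not taken as pairing. With the number as a replicate block, all 80 member calls were the same, and the pathway genes other than members called between moderate and mild swelling numbered 2 in place of 4. The planned ratio of C3 to Cfb was not run, since C3 was not measured here. Signals near background limit C5ar1 and C3ar1 in unswollen joints, Itgam and Itgax in naive joints, and C9 and C8g in severe swelling.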
